A study of Mus musculus with 20 samples.

Results

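Growth hormone signals through a short chain of proteins, and 7 genes of that chain were followed here in the soleus, a slow, oxidative hind-limb muscle, of C57BL/6J mice. The genes are Stat5a, Stat5b, Ghr, Jak2, Socs2, Cish and Bcl6. They are 7 of 56941 gene rows in the count table, and all 7 were among the 16778 rows that passed the filter on low counts. The exposed group of 10 mice underwent 14 days of hind-limb unloading combined with ionizing radiation and a stress hormone given in the diet, and the 10 control mice received sham irradiation. The 3 exposures came together, so the effect of each cannot be told apart from the others. The labels describe the replicates only as 10 mice a group, and the p-values rest on the spread between these libraries, which may be technical in part. The 20 libraries, depleted of ribosomal RNA, held 17336017 to 43424464 counts each.

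The 7 genes were chosen by their place in the pathway and with the difference between exposed and control libraries, the log2 fold change of each gene, already known. Their values in the 2 groups are therefore a description, and no p-value is given for them. Tests are given for other genes of the pathway and for how the 7 genes varied within a group. The lists of other genes were also written with earlier results of these data known, so their tests are not independent of those results.

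Growth hormone binds its receptor, encoded by Ghr, at the cell surface and switches on the receptor-bound tyrosine kinase encoded by Jak2. The kinase phosphorylates the transcription factors encoded by Stat5a and Stat5b, which pair, enter the nucleus and switch on targets, among them Igf1 and the feedback inhibitors Cish and Socs2. Bcl6 encodes a transcriptional repressor that can bind sites also bound by STAT5, and in liver growth hormone lowers Bcl6 through STAT5. The counts measure RNA only, so phosphorylation of the proteins was not measured.

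STAT5 dimers bind the palindrome TTCNNNGAA, which reads the same on both strands. It was searched in RefSeq windows from 250 bases before to 50 bases after annotated transcript starts, on the build GRCm38.p6. Cish and Bcl6 are shown because they alone among the members with a window held a match. Socs2 had no window and was not searched. The capitals mark the TTC and GAA of each match, and each sequence runs 5′ to 3′ on the strand of the gene. The first stretch, on chr9:107296654-107296683, plus strand, crosses the Cish start. The other stretches, both minus strand, lie before the Bcl6 starts, on chr16:23988853-23989002 and chr16:23981284-23981533.
Cish: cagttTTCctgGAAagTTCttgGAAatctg
Bcl6, start 1: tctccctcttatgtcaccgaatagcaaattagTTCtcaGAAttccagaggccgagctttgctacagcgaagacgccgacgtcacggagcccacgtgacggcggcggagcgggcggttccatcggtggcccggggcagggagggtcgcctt
Bcl6, start 2: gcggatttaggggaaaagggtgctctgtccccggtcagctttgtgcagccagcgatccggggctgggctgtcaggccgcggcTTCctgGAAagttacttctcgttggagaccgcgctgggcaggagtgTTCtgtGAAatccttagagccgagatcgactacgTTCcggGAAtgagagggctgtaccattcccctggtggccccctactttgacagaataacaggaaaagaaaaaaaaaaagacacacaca

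The Cish stretch held 2 matches, at positions 1 to 9 and 12 to 20 counted from the RefSeq transcript start. GENCODE M21, used here for gene lengths, starts Cish further upstream, at chr9:107296026. It places the 150 bases before the RefSeq start within Cish exons. Start 1 of Bcl6 had 1 match, 118 to 110 bases before it. Start 2 had 3 matches, at 168 to 160, 122 to 114 and 88 to 80 bases before it. The 2 windows of Stat5a, the 2 of Stat5b, the 2 of Ghr and the 1 of Jak2 held no match. Among all 32851 windows, 8.3% held at least 1 match, 0.457% at least 2 and 0.0335% at least 3. Of the 95 windows of other pathway genes, 10 (10.5%) held a match, in 7 of 74 genes. A match is a run of letters and not a measured binding site.

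**Figure D1:**
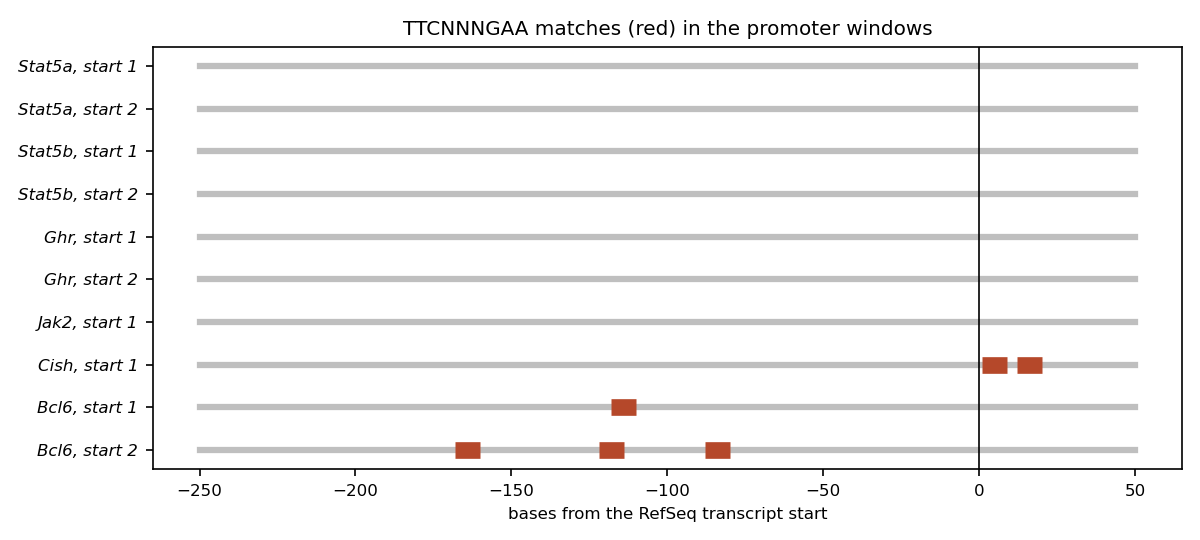
Matches to TTCNNNGAA along the promoter windows of the members other than Socs2, which had no window, as distance in bases from the annotated transcript start. The Cish window held 2 matches just after the RefSeq start, which lies inside the gene in GENCODE M21. The 2 Bcl6 windows held 1 and 3 before the start, while the windows of Stat5a, Stat5b, Ghr and Jak2 held none.

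The pathway's transcription factor and kinase genes were higher in exposed soleus, its receptor gene was slightly higher, and the feedback gene Cish was lower. As a description, 4 of the 7 members were among the genes called higher (Stat5b, Stat5a, Jak2 and Ghr) and 1 among those called lower (Cish) by the edgeR quasi-likelihood test at a Benjamini-Hochberg adjusted p under 0.05. Across all tested genes 57.6% were called, 28.7% higher and 28.9% lower, and since the members were chosen with this contrast known, nothing is read from their count. The median log2 fold change was 0.29 over the 7 members and 0.02 over all tested genes. Socs2 and Bcl6 were not called, which does not exclude a small difference. In bulk tissue, fewer cells of a type and less RNA per cell cannot be told apart.

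Stat5b, the STAT5 gene through which growth hormone acts most on postnatal growth in male mice, had the largest difference among the members called higher. Its level was lowest at 233.8, median 264.2 and highest at 300.1 CPM (read counts scaled to library size with TMM factors) in exposed libraries, against 87.9, 101.8 and 116.0 CPM in controls. Every exposed library lay above every control by a wide margin, and the spread within each group was narrow. The mean was 266 ± 20.7 CPM in exposed and 101 ± 8.38 CPM in control libraries (SD, n = 10 each), a 2.63-fold difference with a log2 fold change of 1.40 ± 0.052 (SE). Fold changes come from the edgeR model, and each SE from the difference between group averages of log2 CPM.

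Stat5a, the neighbouring paralog best known for its role in the mammary gland, was higher by less. It ranged from 20.0 through a median of 26.5 to 35.2 CPM in exposed libraries and from 15.5 through 17.1 to 23.1 CPM in controls. The groups overlapped through 1 library each, the lowest exposed library and control replicate 5. The mean was 27.3 ± 4.13 CPM in exposed and 17.6 ± 2.23 CPM in control libraries (SD, n = 10 each), with a log2 fold change of 0.63 ± 0.088 (SE). Stat5a and Stat5b lie side by side on chromosome 11, on opposite strands. They are near copies in part. Of the 100-base windows of the longest coding transcript, 6.99% for Stat5a and 5.18% for Stat5b occur in the other gene. No source used here gives how reads matching both were counted, so the split between the pair is uncertain. Stat5a also shares 72 exonic bases with Stat3 on the other strand, and whether the counting used strand is not stated.

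Jak2 encodes the kinase that the receptor switches on. It held 58.5 CPM in the lowest, 74.2 in the median and 85.9 in the highest exposed library, against 30.6, 33.6 and 39.5 CPM in controls. The groups did not overlap, and the lowest exposed library lay well above the highest control. Its mean was 73.1 ± 10.0 CPM in exposed and 34.2 ± 2.81 CPM in control libraries (SD, n = 10 each), a 2.14-fold difference with a log2 fold change of 1.10 ± 0.073 (SE).

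Ghr encodes the receptor itself. It ranged from 130.4 through a median of 143.6 to 171.4 CPM in exposed libraries and from 93.4 through 121.3 to 130.2 CPM in controls. The groups did not overlap but nearly touched, since the lowest exposed and highest control libraries were almost level. The mean was 145.7 ± 12.6 CPM in exposed and 118.9 ± 11.3 CPM in control libraries (SD, n = 10 each), with a log2 fold change of 0.29 ± 0.060 (SE). Ghr, Jak2 and Stat5b were the 3 of 7 members whose ranges did not overlap, as was the case for 17.4% of all tested genes.

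Cish, whose protein binds activated receptors and blocks STAT5 docking, was the member with the largest difference of either sign and the least even values. Exposed replicates 1 to 10 held 3.50, 6.02, 5.12, 1.71, 3.92, 4.70, 2.51, 3.57, 2.56 and 2.51 CPM. Control replicates 1 to 10 held 7.71, 17.0, 62.9, 20.7, 14.9, 1.91, 6.23, 3.24, 2.58 and 15.5 CPM. Of the controls, 7 lay above the highest exposed library and 3 lay within the exposed range, and control replicate 3 stood far above the rest. The highest library was 3.51 times the lowest among exposed and 32.9 times among control libraries. The mean was 3.61 ± 1.35 CPM in exposed and 15.3 ± 18.0 CPM in control libraries (SD, n = 10 each). The edgeR model gave a 4.27-fold difference, a log2 fold change of -2.09. The SE of 0.520 belongs to the difference between group averages of log2 CPM, which is not this estimate. Without control replicate 3 the edgeR difference was 2.77-fold and its log2 fold change was -1.47. With limma-voom, which averages log values, it was -1.45 over all 20 libraries. The counts behind these values were 56 to 213 in exposed and 44 to 2665 in control libraries. Exons of Cish overlap Gm17040 and Gm17041 on the other strand, whose rows held 124 and 2 counts over all 20 libraries. Of the 100-base windows of the longest coding Cish transcript, 10.6% occur in these genes.

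Socs2, a feedback gene whose protein marks the receptor for degradation and whose loss makes mice larger, differed little. It held 3.74 CPM in the lowest, 5.28 in the median and 8.51 in the highest exposed library, against 4.35, 5.34 and 18.0 CPM in controls. The groups overlapped and their medians were almost the same. The mean was 5.57 ± 1.65 CPM in exposed and 6.90 ± 4.02 CPM in control libraries (SD, n = 10 each), with a log2 fold change of -0.32 ± 0.225 (SE). Control replicate 3 was again the highest library, and without it the log2 fold change was -0.03. Of the 100-base windows of the longest coding Socs2 transcript, 10.4% occur in Gm9847, whose row held 2 counts over all 20 libraries.

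Bcl6, the repressor gene, ranged from 65.5 through a median of 96.2 to 108.3 CPM in exposed libraries and from 63.0 through 86.0 to 100.1 CPM in controls. The groups overlapped over most of their range. The mean was 92.8 ± 13.1 CPM in exposed and 82.9 ± 14.2 CPM in control libraries (SD, n = 10 each), with a log2 fold change of 0.16 ± 0.106 (SE).

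**Figure D2:**
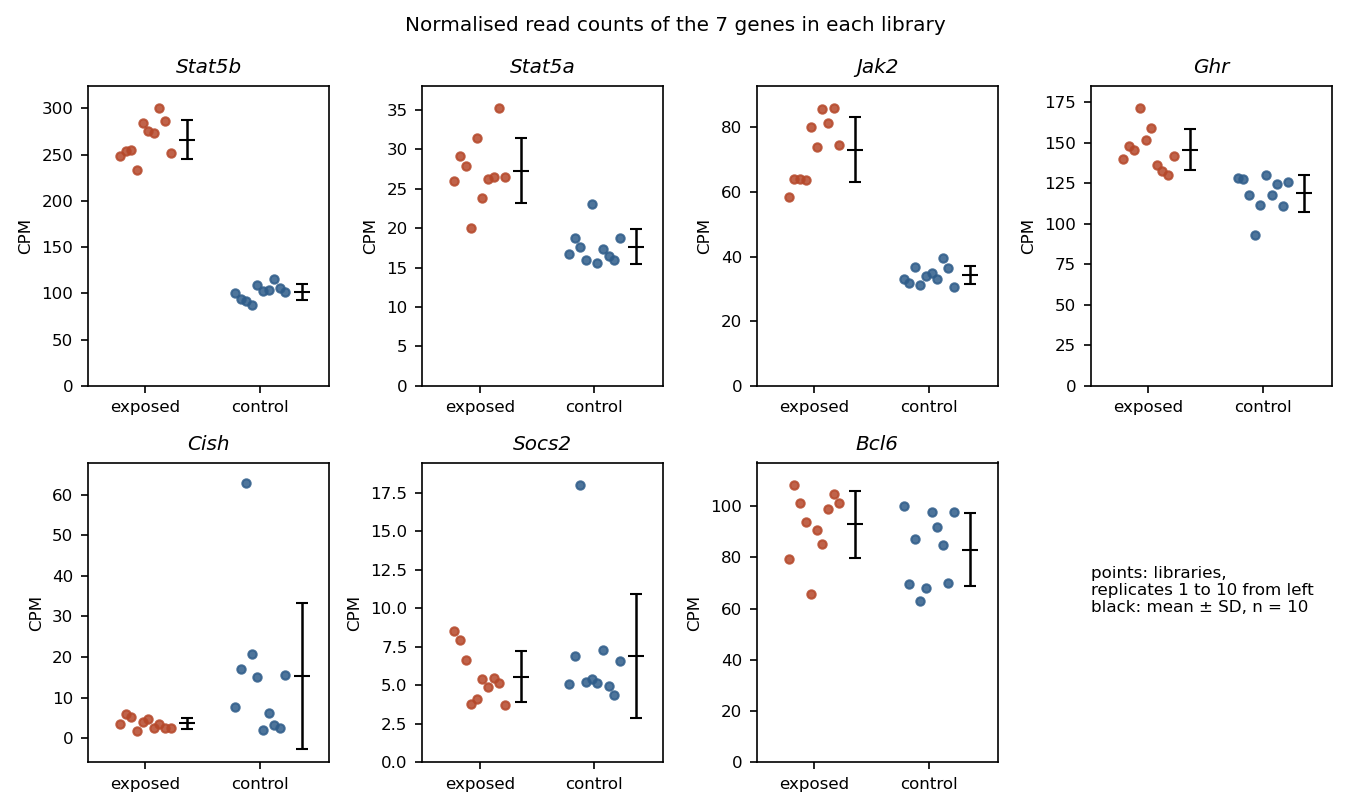
Level of each member in CPM in every exposed and control library, with the group mean and SD. Stat5b, Jak2 and Ghr show no overlap between the groups, and Cish spreads from 1.91 to 62.9 CPM among controls.

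**Figure D3:**
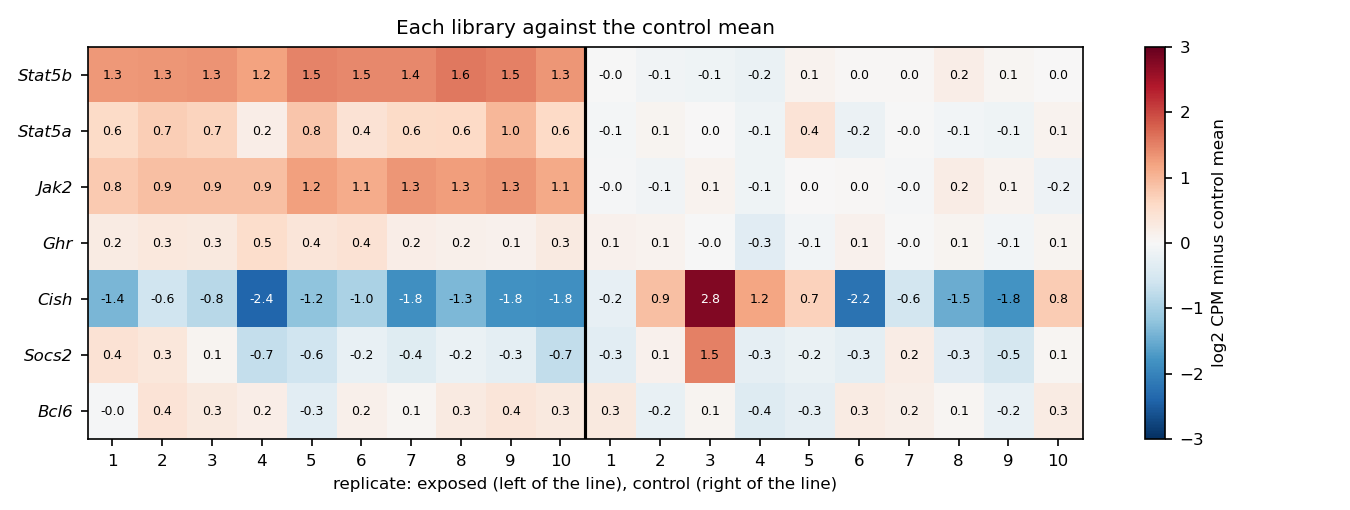
Difference of each library from the control mean, on the log2 CPM scale, for the 7 members. Stat5b and Jak2 are above the control mean in all 10 exposed libraries, and Cish is below it in all 10.

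Levels of different genes were set side by side per length, as RPKM. In exposed libraries Stat5b was highest at 48.1 ± 3.73 RPKM, followed by Ghr at 16.1 ± 1.39, Jak2 at 14.5 ± 1.99, Bcl6 at 13.8 ± 1.95, Stat5a at 3.82 ± 0.579, Socs2 at 0.584 ± 0.174 and Cish at 0.563 ± 0.211 RPKM (SD, n = 10). The ranges of Ghr, Jak2 and Bcl6 overlapped there, as did those of Socs2 and Cish. In controls the order was Stat5b at 18.3 ± 1.51, Ghr at 13.1 ± 1.25, Bcl6 at 12.4 ± 2.11, Jak2 at 6.79 ± 0.559, Stat5a at 2.47 ± 0.313, Cish at 2.38 ± 2.81 and Socs2 at 0.724 ± 0.422 RPKM (SD, n = 10). Ghr and Bcl6 overlapped in controls, and the wide range of Cish, 0.298 to 9.80 RPKM, took in those of Socs2, Stat5a and Jak2 and reached that of Bcl6. In RPKM, Stat5b stood above every other member in every library of both groups. The order depends on the length used, here the union of all exons. That union was 9053 bases for Ghr, 6700 for Bcl6 and 5539 for Stat5b. Their longest coding transcripts were 4175, 3525 and 5213 bases. In CPM, Ghr averaged 118.9 and Stat5b 101.2 in controls. The ratio of Stat5b to Stat5a, in RPKM, was 12.8 ± 1.64 in exposed and 7.48 ± 0.984 in control libraries (SD, n = 10 each), with ranges of 10.5 to 15.1 and 6.08 to 9.05. For Stat5a the union of exons was 7133 bases and the longest coding transcript 3888. Both ratios would be lower by transcript length, and the split of reads between the pair is uncertain.

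Exposed replicates 1 to 4 stood apart by Schwann cell markers, whose summed level was 574.7 to 1660.6 CPM there, 108.3 to 209.8 CPM in exposed replicates 5 to 10 and 114.5 to 221.9 CPM in controls. All 12 of 12 Schwann markers were called higher in the exposed group. Jak2 was 58.5 to 64.0 CPM in exposed replicates 1 to 4 and 73.7 to 85.9 CPM in exposed replicates 5 to 10, with no overlap. Stat5b was 233.8 to 255.5 CPM in exposed replicates 1 to 4 and 251.8 to 300.1 CPM in exposed replicates 5 to 10. Without the 4 libraries the log2 fold changes were 1.47 for Stat5b, 1.24 for Jak2, 0.26 for Ghr, 0.69 for Stat5a, -2.23 for Cish, -0.54 for Socs2 and 0.14 for Bcl6.

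Markers of muscle, the labelled tissue, summed to 180904 to 256690 CPM in exposed and 203103 to 253676 CPM in control libraries. Most of this sum is Ttn, and of the 8 muscle markers 1 was higher (Ckm) and 5 were lower, among them the slow fibre genes Myh7, Tnnt1 and Tnni1. Adipocyte markers summed to 1021.6 to 1819.5 CPM in exposed and 2082.0 to 3101.2 CPM in control libraries, with 1 of 9 tested higher and 1 lower. That sum is carried by Car3, at 1176.8 CPM in exposed and 2404.5 CPM in control libraries, while Adipoq averaged 17.2 CPM in exposed and 9.76 CPM in control libraries and was not called. Fibroblast markers summed to 445.0 to 680.0 CPM in exposed and 557.9 to 1280.1 CPM in control libraries, with 2 of 6 higher and 3 lower. Endothelial markers summed to 333.4 to 428.5 CPM in exposed and 370.5 to 492.0 CPM in control libraries, with 1 of 7 higher and 2 lower. Macrophage markers summed to 71.5 to 146.8 CPM in exposed and 52.5 to 103.8 CPM in control libraries, with 3 of 9 higher. Lymphocyte markers summed to no more than 6.99 CPM in exposed and 5.71 CPM in control libraries. The part of these cells in the members' values was not tested.

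How members varied together within a group does not depend on the contrast that chose them. Of 21 pairs, none passed a permutation test of Pearson's r or Spearman's rho on log2 CPM after Benjamini-Hochberg adjustment, in the 10 exposed libraries or the 10 controls. At an unadjusted p under 0.05, 3 pairs passed by Pearson's r in each group, and 2 in exposed and 3 in control libraries by Spearman's rho. Those by Pearson's r included Ghr and Bcl6 in controls (r 0.73, permutation p = 0.00841, adjusted 0.101). They also included Stat5a and Ghr in exposed libraries (r -0.66, permutation p = 0.0400, adjusted 0.280). The pairs detailed next, Socs2 with Cish and Stat5b with Jak2 or Cish, were named by hand and not picked by p. Socs2 and Cish had an r of 0.67 in exposed libraries (permutation p = 0.0354, adjusted 0.280) and a rho of 0.68 (p = 0.0353, adjusted 0.371). In controls their r was 0.73 (permutation p = 0.00964, adjusted 0.101) and their rho 0.66 (p = 0.0457, adjusted 0.320). Without the 2 libraries farthest from the Socs2 median, r was 0.70 in exposed and 0.68 in control libraries (n = 8 each). In exposed replicates 5 to 10 alone r was 0.32 (exact permutation p = 0.463).

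Stat5b and Jak2 had an r of 0.81 over the 10 exposed libraries (permutation p = 0.00717, adjusted 0.151) and a rho of 0.81 (p = 0.00665, adjusted 0.140), and r was 0.83 without the 2 libraries farthest from the Stat5b median. These values span the separate ranges of Jak2 in exposed replicates 1 to 4 and 5 to 10, and with scaling by library size alone r was 0.22. In exposed replicates 5 to 10 their r was 0.50 (exact permutation p = 0.335, adjusted 0.803) and their rho 0.43 (p = 0.419, adjusted 0.746). In controls r was 0.56 (permutation p = 0.0890, adjusted 0.467) and rho 0.48 (p = 0.167, adjusted 0.577), and without the 2 libraries farthest from the Stat5b median r was 0.03. With 1 control left out it lay between 0.29 and 0.79. Stat5b and Cish had an r of 0.22 in exposed libraries (permutation p = 0.546, adjusted 0.898) and a rho of 0.31 (p = 0.388, adjusted 0.741). In controls their r was -0.66 (permutation p = 0.0368, adjusted 0.258) and their rho -0.73 (p = 0.0200, adjusted 0.280). Without the 2 farthest libraries r was -0.24 in exposed and -0.61 in control libraries. The difference between the groups was not tested.

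**Figure D4:**
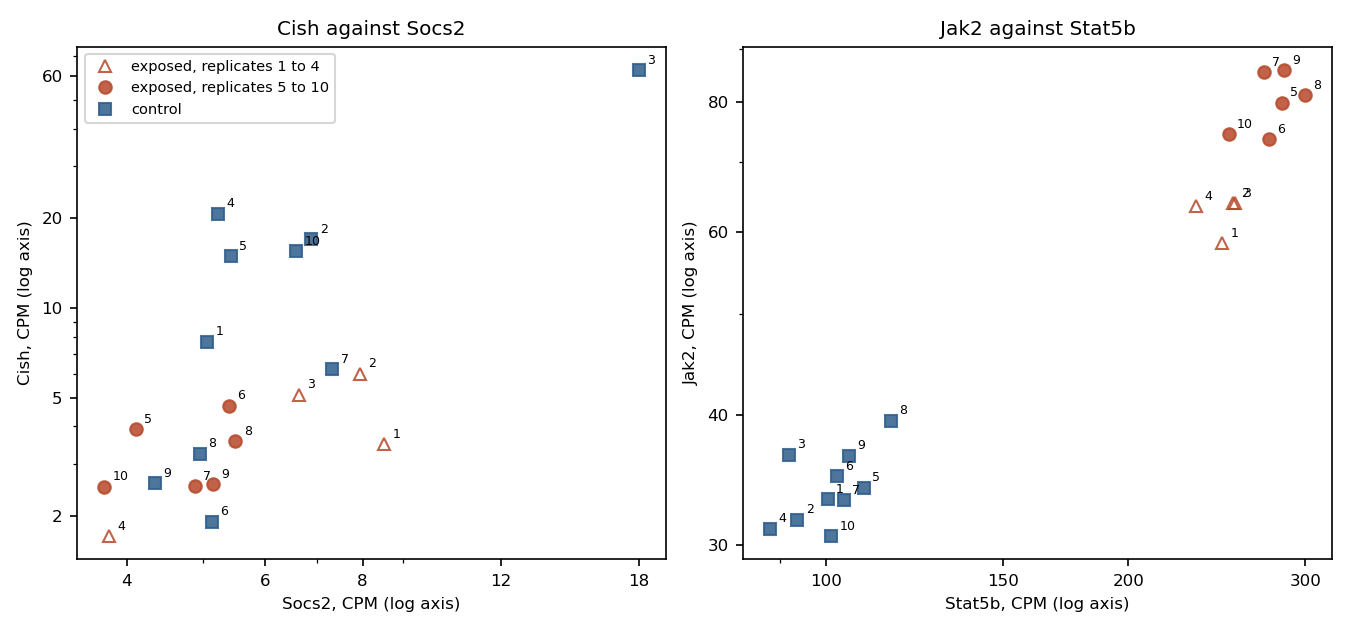
Cish against Socs2 (left) and Jak2 against Stat5b (right), in CPM on log axes, 1 point a library numbered by replicate, with exposed replicates 1 to 4, exposed replicates 5 to 10 and controls marked apart. Control replicate 3 is highest for both Cish (62.9 CPM) and Socs2 (18.0 CPM), and the exposed libraries form separate ranges of Jak2.

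The genes whose pattern was most like that of Stat5b were sought among 9211 tested genes that averaged 5 CPM or more. Genes without a symbol, or with a provisional one (Gm plus digits, or ending in Rik), were left out. Over all 20 libraries, which share the difference between the groups, r was highest for Clcn1 (0.989), the muscle chloride channel, then Wnt4, Klhl33, Rps6ka5 and Rbfox1, all at 0.986 or above. It was lowest for Bdh1 (-0.989), an enzyme of ketone body use, then Clic4 and Fam129a. After each group's mean was subtracted, r with Stat5b was highest for Urod (0.797), Tmod4 (0.791), Pigu (0.789), Spryd7 (0.780) and Tcp1 (0.776). It was lowest for Hk1 (-0.789), Actn4 (-0.751) and Flna (-0.747). These values describe likeness over the same libraries and carry no test.

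The rest of the pathway was split in direction. Of 99 other pathway genes, 91 were tested, and 34 rose and 30 fell in exposed soleus by the edgeR quasi-likelihood test at an adjusted p under 0.05. The share called was 70.3%, beside 57.6% of all tested genes, and their median log2 fold change was 0.01, against 0.02 for all. By list the share called was 57.1% for JAK and STAT relatives, 80% for receptors, 70.6% for adaptors and 54.5% for negative regulators. It was 66.7% for STAT5 targets elsewhere, 75% for Bcl6 corepressors and 100% for STAT5 cofactors. These lists held 6 to 22 tested genes. For each gene called below, except where another number is given, all 10 exposed libraries fell on the same side of the mean of the controls. Values follow for up to 4 genes a list with the smallest p and for those that changed at least 2-fold.

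The relatives of Jak2, Stat5a and Stat5b gave a mixed picture. Of 7 tested JAK and STAT relatives, 1 rose and 3 fell. Jak3, the kinase of common gamma chain receptors, fell to 9.19 CPM in exposed against 12.7 CPM in control libraries (edgeR adjusted p = 3.88e-06). Stat3, which answers interleukin-6, fell to 65.1 CPM in exposed against 74.1 CPM in control libraries (edgeR adjusted p = 0.00547). Tyk2 rose to 13.8 against 12.4 CPM in 8 of 10 exposed libraries (edgeR adjusted p = 0.0436), a call that was lost without exposed replicates 1 to 4. Jak1, named after its values were seen, held 118.6 CPM in exposed and 118.2 CPM in control libraries.

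Among receptors known to activate STAT5, 8 of 15 tested rose and 4 fell. Prlr, the prolactin receptor and a close relative of Ghr, fell to 0.850 CPM in exposed against 1.76 CPM in control libraries, in 9 of 10 exposed libraries (log2 fold change -1.01 ± 0.318 SE, edgeR adjusted p = 0.00633). Without exposed replicates 1 to 4 its log2 fold change was -1.81 (edgeR adjusted p = 2.83e-06). Igf1r rose to 81.6 against 59.2 CPM (edgeR adjusted p = 3.11e-08), Il6ra to 31.7 against 15.6 CPM (edgeR adjusted p = 2.72e-06), Egfr to 56.1 against 38.8 CPM (edgeR adjusted p = 9.41e-05) and Csf3r, in 9 of 10 exposed libraries, to 1.40 against 0.616 CPM (edgeR adjusted p = 0.0155). Csf2rb, the common beta chain of cytokine receptors, rose to 3.99 against 2.60 CPM (edgeR adjusted p = 0.00179), and without exposed replicates 1 to 4 it did not pass (edgeR adjusted p = 0.0786). Without those libraries 7 of the receptors rose and 1 fell. Counts were few for Prlr and Csf3r, with 819 and 636 over all 20 libraries.

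Adaptors and other early signalling genes below the receptor, including subunits of phosphatidylinositol 3-kinase, were split, with 5 of 17 higher and 7 lower. Pik3r1, a regulatory subunit gene of that kinase, rose to 281.8 ± 70.6 CPM in exposed against 114.2 ± 13.6 CPM in control libraries (SD, n = 10 each; edgeR adjusted p = 1.51e-08), and Pik3r2 to 19.6 against 14.1 CPM (edgeR adjusted p = 7.78e-09). The catalytic subunit gene Pik3ca fell to 79.5 against 133.3 CPM (edgeR adjusted p = 5.86e-11). The insulin receptor substrate genes fell too, Irs1 to 85.2 against 162.0 CPM (edgeR adjusted p = 4.40e-09) and Irs2 to 52.4 against 120.2 CPM (edgeR adjusted p = 0.000115). Grb10, an adaptor that restrains insulin and IGF receptors, fell to 55.1 against 107.4 CPM (edgeR adjusted p = 2.04e-09).

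Of 22 tested negative regulators, 4 rose and 8 fell, so that 54.5% were called, beside 57.6% of all tested genes. Adam17, the protease that sheds the outer part of the growth hormone receptor, fell to 21.1 CPM in exposed against 33.9 CPM in control libraries (log2 fold change -0.68 ± 0.042 SE, edgeR adjusted p = 4.16e-12). Of the SOCS relatives, Socs5 fell to 25.4 against 35.8 CPM (edgeR adjusted p = 1.03e-07) and Socs6 to 48.1 against 60.3 CPM (edgeR adjusted p = 6.31e-08). Rnf7, a partner of the ubiquitin ligases SOCS proteins use, fell to 31.4 against 40.9 CPM (edgeR adjusted p = 1.72e-08). Socs3, named after its values were seen, held 2.78 CPM in exposed and 3.42 CPM in control libraries and was not called (edgeR adjusted p = 0.266).

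Genes known as STAT5 targets in other tissues did not share a direction, with 5 of 18 higher and 7 lower. Pim1, a survival kinase gene, rose to 32.3 ± 8.84 CPM in exposed against 10.5 ± 1.42 CPM in control libraries (SD, n = 10 each; log2 fold change 1.63 ± 0.132 SE, edgeR adjusted p = 1.82e-09). Gadd45g, a stress response gene, rose to 15.8 ± 8.04 against 5.01 ± 1.04 CPM in 9 of 10 exposed libraries (SD, n = 10 each; edgeR adjusted p = 6.78e-05). Ccnd1, the cyclin D1 gene, fell to 3.08 against 11.7 CPM (edgeR adjusted p = 5.33e-11), Id1 to 4.57 against 10.1 CPM (edgeR adjusted p = 0.000291), Id3 to 7.72 against 13.5 CPM (edgeR adjusted p = 4.11e-05) and Mcl1 to 151.2 against 203.9 CPM (edgeR adjusted p = 9.57e-06). Igf1, the growth factor induced by growth hormone, was named after its values were seen. It fell to 21.4 CPM in exposed against 29.9 CPM in control libraries, with overlapping ranges of 13.2 to 28.7 and 22.7 to 45.2 CPM (edgeR adjusted p = 0.00944).

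The partners of the transcription factors were higher in most cases. Of 8 tested corepressor genes and relatives of Bcl6, 6 rose and 2 were not called, and Bcl6 itself was not called. Among them were Hdac4 at 179.5 CPM in exposed against 79.0 CPM in control libraries (edgeR adjusted p = 7.47e-07), Hdac3 at 37.4 against 33.0 CPM (edgeR adjusted p = 0.000207) and the paralog Bcl6b at 13.2 against 7.65 CPM (edgeR adjusted p = 0.00109). Of 6 cofactor genes of STAT5, 5 rose and 1 fell. Nr3c1, named after its values were seen, fell to 122.5 CPM in exposed against 143.5 CPM in control libraries (edgeR adjusted p = 8.42e-05). Ncoa1 rose to 87.5 against 57.1 CPM (edgeR adjusted p = 9.39e-12), the acetyltransferase genes Crebbp to 192.5 against 148.1 CPM (edgeR adjusted p = 3.32e-10) and Ep300 to 120.8 against 99.7 CPM (edgeR adjusted p = 8.56e-08), and the histone methyltransferase gene Ezh1 to 63.0 against 47.1 CPM (edgeR adjusted p = 9.49e-07).

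**Figure D5:**
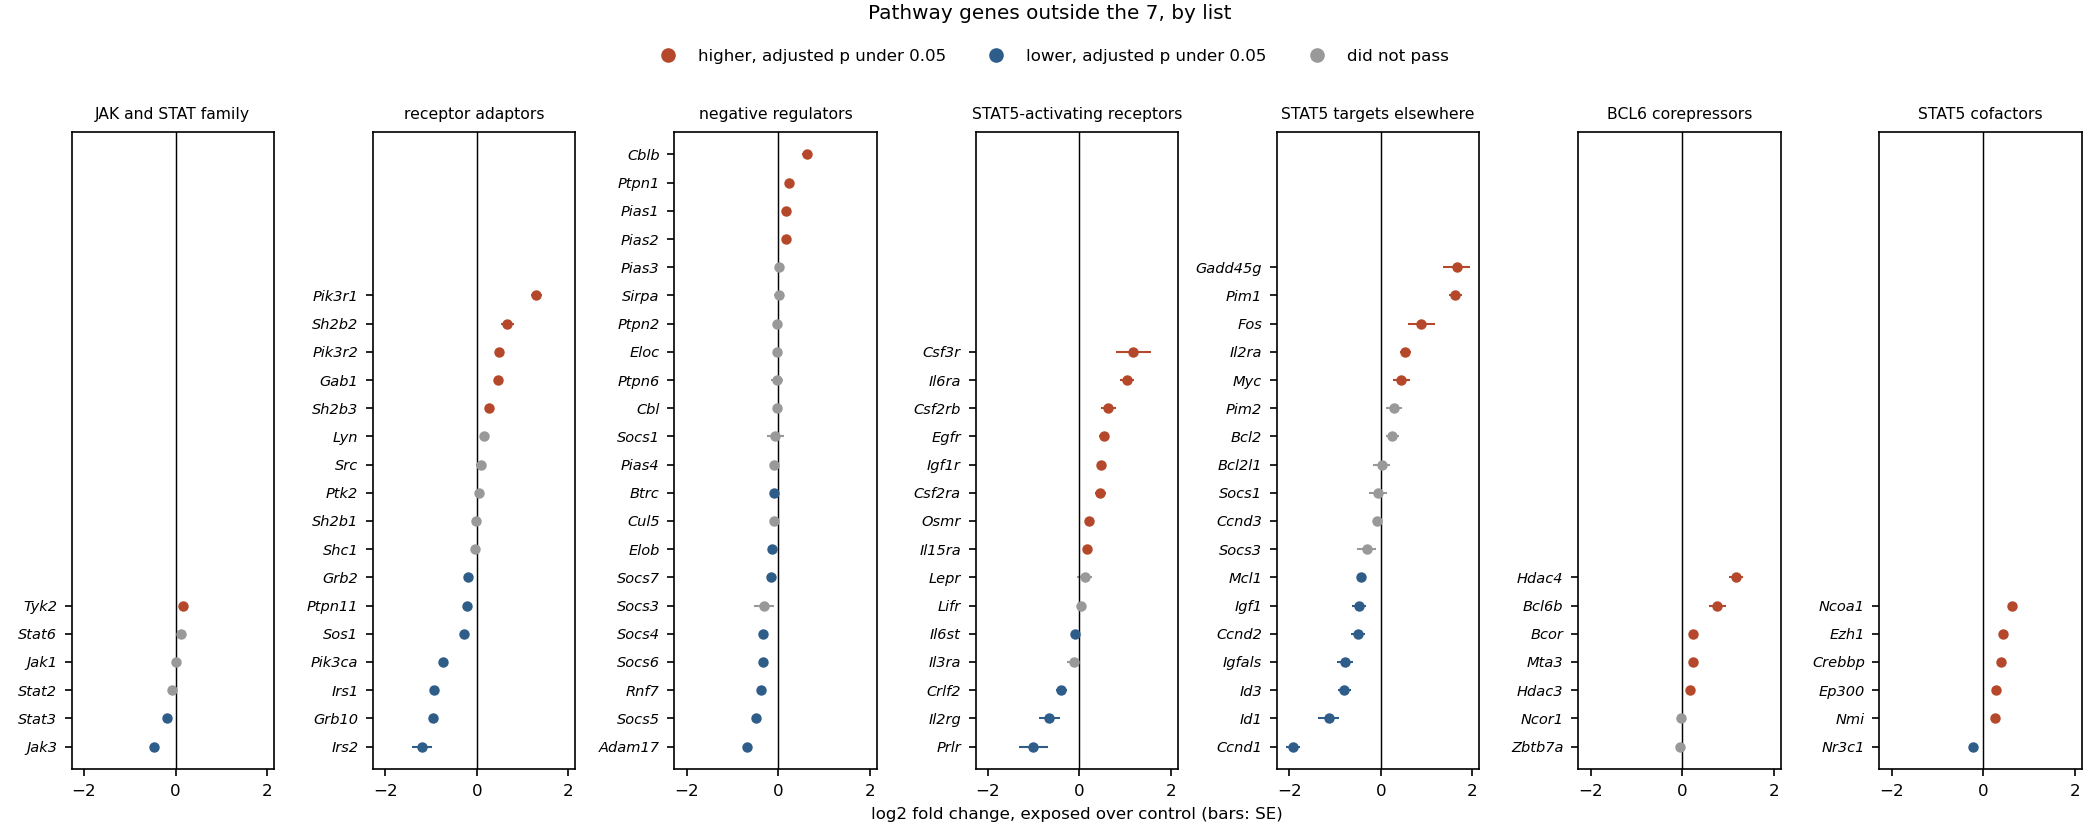
Log2 fold change, exposed over control, of tested pathway genes outside the 7, grouped by list, with SE; red and blue points passed the test and grey points did not. Pim1 (1.63) and Pik3r1 (1.30) lie to the right, and Ccnd1 (-1.92) and Irs2 (-1.20) to the left.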

How the data were processed

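The authors deposited raw read counts per Ensembl gene, not normalized. Per the submitters' processing notes, MultiQC 1.15, Subread, featureCounts 1.5.1, edgeR and GRCm39 were used. The sources used here do not give their roles, the annotation or the strand setting. Names were matched by Ensembl identifier to GENCODE M21 on GRCm38 for 51948 of 56941 rows, with 97.6% of counts. Library codes were matched to the sample descriptions.

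Counts were fitted in R 4.3.3 with edgeR 4.0.16: filterByExpr (minimum count 10, minimum total 15), TMM scaling, a quasi-likelihood test, and Benjamini-Hochberg adjusted p under 0.05. log2 CPM used a prior count of 2, the SE refers to the difference between group averages of log2 CPM, and RPKM used union exon lengths. Correlations used 100000 permutations, or all of them for 6 libraries. The edgeR fit and the correlation tests were tried on simulated data. The motif search and the flags for outlying libraries were not. The simulated edgeR fit recovered 39.7% of 1.25-fold, 65.6% of 1.5-fold and 96.8% of 3-fold changes, with 7 false calls among 136. The members, lists and tests, including the comparison without exposed replicates 1 to 4, were chosen with earlier results of these data known. The text names all members, up to 4 genes a list by smallest p among those called, and called list genes with an absolute log2 fold change of at least 1. A few genes this rule takes are left out of the text and figures and are not reported here, though list counts include them. Alternatives were DESeq2 1.42.0 size factors and test, upper-quartile factors, library size alone, limma 3.58.1 voom with quality weights, 2 other filters, a prior count of 0.5, the sample number as a block, an adjusted p under 0.01 and each library left out.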

Additional observations from a re-analysis of the deposited data

Results flagged for a closer look

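In 9 of the 82 groups of 10 libraries examined, the library at one end lay far from its nearest neighbour against the range of the group. Chance flags about 1 in 20 groups. Among the members, these were control replicate 3 for Cish (62.9 CPM, next 20.7) and for Socs2 (18.0 CPM, next 7.32), control replicate 4 for Ghr (93.4 CPM, next 111.0) and control replicate 5 for Stat5a (23.1 CPM, next 18.8). Among other pathway genes they were exposed replicate 7 for Pim1 (53.0 CPM, next 36.2), exposed replicate 4 for Prlr (2.39 CPM, next 1.27), control replicate 7 for Csf3r (1.92 CPM, next 0.897), control replicate 5 for Ep300 (110.2 CPM, next 101.6) and control replicate 8 for Grb10 (146.3 CPM, next 118.4).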

How the results depend on the processing

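The log2 fold changes of the 7 members, which are a description, kept their sign under the alternative fits and with each library left out. Cish moved most, from -2.23 to -1.45 on the log2 scale. Tyk2, the 1 JAK or STAT relative called higher, became 2 such genes with DESeq2 size factors or test, upper-quartile factors, library size alone or a CPM of 1 in 10 libraries. It became 0 with no filter, the replicate block, an adjusted p under 0.01 or without exposed replicates 1 to 4, and 0 to 2 with 1 library left out. The 8 lower negative regulators were 5 with upper-quartile factors or library size alone, which moved the median of all genes to 0.08 and 0.10. The 4 lower receptors were 2 at an adjusted p under 0.01 and 1 without exposed replicates 1 to 4. For these counts the cause was not tested.

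No pairing by sample number was seen, since same-numbered libraries had correlations from -0.132 to 0.098. The labels do not state a pairing, and these values cannot exclude a weak one. With the number as a replicate block, 4654 genes were higher and 4816 lower, against 4813 and 4850 without it.

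Within exposed libraries, r of Stat5b and Cish was 0.22, but -0.24 without the 2 libraries farthest from the Stat5b median and between -0.21 (without exposed replicate 4) and 0.38 with 1 library left out. Within controls, 0 to 1 pairs passed with 1 library left out; the 1 pair, Ghr and Bcl6, appeared without control replicate 2 (r 0.89, permutation adjusted p = 0.00903, against 0.101 with all 10). Among the members, precision is lowest for Cish and Socs2, whose lowest libraries held 44 and 74 counts.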
